A study of Mus musculus with 12 samples.

Results

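The comparison set 3 arrays that the labels call activated T cells against 3 arrays that they call resting T cells, which are 6 of the 12 arrays of the series. Both groups were chosen by the cell type in the labels alone. The cells labelled resting T were B220-negative splenic cells taken by magnetic sorting on day 0 from C57Bl/6 x FVB mice, and those labelled activated T were harvested after 4 days of culture with antibodies against CD3 and CD28 (aCD3+aCD28) and IL2. The remaining arrays were labelled resting B, for CD43-negative cells on day 0, and activated B, for cells given an antibody against CD40 and IL4 (aCD40+IL4) for 4 days, and are used below only to show where the labelled T arrays differed from them. No transgene or deletion is named for any group, and age is not given in the sources used here. Total RNA was labelled with biotin by a whole-transcript kit and read on Affymetrix mouse gene arrays. Replicate numbers 4, 5 and 6 run through both labelled T groups, and by Xist (4.04 and 4.11 against 10.79 to 11.24) and Y-linked genes the mice behind the arrays numbered 4 were of the other sex than those behind the arrays numbered 5 and 6, in both groups. The labels do not state separate mice or cultures within a group, and by sex only the arrays numbered 4 are known to have another source. The p-values measure the spread between arrays, which holds this difference of sex and may otherwise be technical.

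The lineage genes went against the labels, and all directions below are therefore directions between labelled groups. A level is a deposited log2 value of 1 gene on 1 array, a difference is the mean level of the arrays labelled activated T minus that of the arrays labelled resting T, and a gene was called when its limma p, adjusted by Benjamini-Hochberg over 19937 genes, was under 0.05. Of all genes, 15.9% were called higher and 17.8% lower in labelled activated T. Genes of cell division, DNA replication, glycolysis and cholesterol synthesis were lower in the arrays labelled activated T, with medians of their differences between -1.96 and -3.18. Genes of B cell identity, of B cell receptor signalling, of lymphocyte homing and of the immediate early response were higher there, with medians between 1.17 and 1.47. The median difference over all genes was 0.02.

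Lymphocytes of the spleen rest in a state in which transcription factors such as those of the KLF and FOXO families hold up the genes of homing and hold down those of growth. On activation, T cells as well as B cells grow, take up glucose and amino acids, synthesise sterols and nucleotides, and divide, while homing receptors such as the sphingosine phosphate receptor are turned off. T cells carry the CD3 complex and CD4 or CD8, and when activated through CD3 and CD28 they make the high-affinity IL-2 receptor and, in part, granzymes. B cells carry the antigen receptor with CD79, CD20 (Ms4a1) and the transcription factor Pax5, and are also driven into division by CD40 ligation with IL-4, which acts through STAT6.

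The label was checked first against these lineage genes. Cd79a, a signalling chain of the B cell receptor, had levels of 10.58, 10.64 and 10.13 in labelled resting T and 11.79, 11.61 and 11.52 in labelled activated T. Ms4a1, which encodes CD20, had levels of 10.65, 10.59 and 10.68 in labelled resting T and 11.997, 11.90 and 11.95 in labelled activated T, and Pax5 had 10.03, 9.97 and 9.61 in labelled resting T and 11.03, 11.01 and 10.85 in labelled activated T. All 6 arrays lay far above the background of 5.21, which is the 95th percentile of 1027 olfactory receptor genes, and the arrays labelled activated T were the higher for all 3 genes. In bulk RNA, fewer cells of a type and less RNA of a gene per cell cannot be told apart. Cd3e, which belongs to the CD3 complex, had 5.60, 6.32 and 5.89 in labelled resting T and 6.36, 6.19 and 6.74 in labelled activated T. Of the same complex, Cd3d and Cd3g were not called, at differences of 0.197 ± 0.187 (SE) and 0.965 ± 0.367 (SE) (limma adjusted p = 0.492 and 0.0538). Cd3d had means of 4.85 in labelled resting T and 5.04 in labelled activated T, both under the background. Cd4 had 5.15, 4.92 and 5.06 in labelled resting T and 5.33, 5.40 and 6.05 in labelled activated T, and Cd8a had 5.16, 5.36 and 6.76 in labelled resting T and 6.52, 6.79 and 7.45 in labelled activated T. Cd4 lay under the background in some arrays, and the groups overlapped for Cd3e, Cd3d, Cd3g and Cd8a. The call of Cd3e, at 0.50 ± 0.17 (SE) (limma adjusted p = 0.0362), was lost in 9 of 17 alternatives, among them each that left out replicate 4 or 6 of either labelled T group (0.0556 to 0.191), and that of Cd8a with an intensity trend and robust settings (0.0564). Of 21 T cell genes measured, 6 were called higher, which is 28.6% beside 15.9% of all genes, and 1 lower, with a median difference of 0.20, and 4 lay at or under the background in both groups. The arrays labelled B went against their labels as well, since the mean level of the T cell list was 9.23 to 9.91 in them, beside 5.36 to 6.38 in the arrays labelled T, and that of the B cell list was 5.32 to 8.13, beside 8.94 to 10.84. Whether sample labels were exchanged was not tested, and "labelled T" and "labelled B" below give the labels only. The summed linear level of the T cell genes was 1220 to 1345 in labelled resting T and 2381 to 3022 in labelled activated T. By the mean over the whole list, the array numbered 6 was the highest of its group in both groups, at 5.73 and 6.38. Without the array labelled activated T replicate 6, only 4 T cell genes were called higher, and with the replicate number as a block 9 were.

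**Figure D1:**
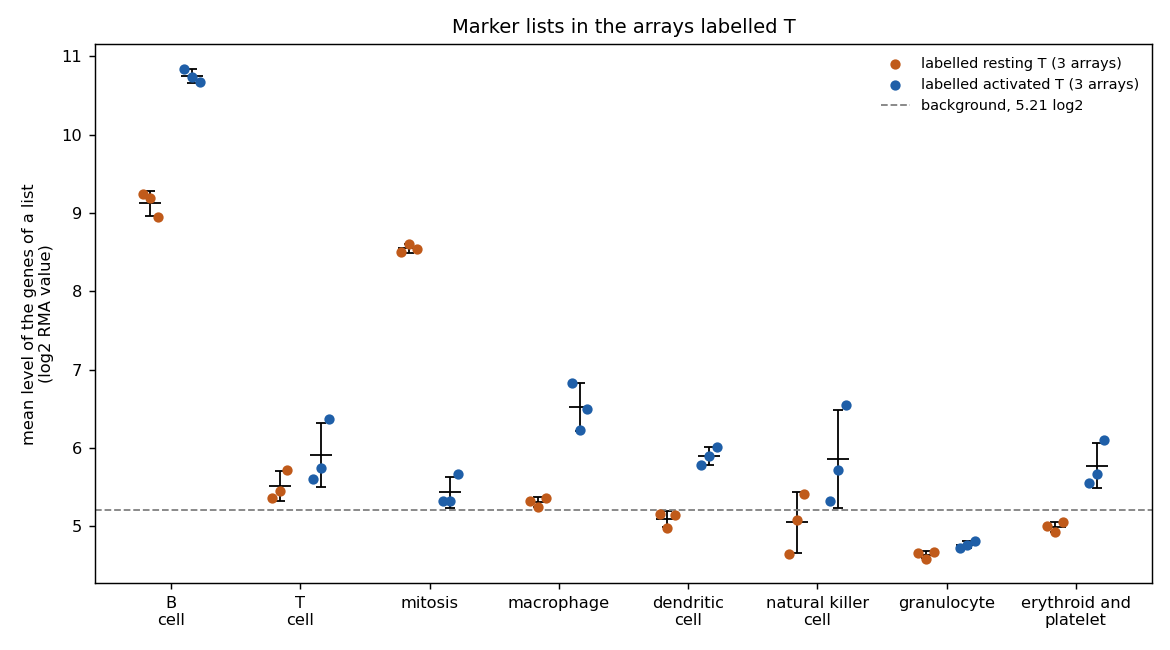
Mean level (log2 RMA value, vertical axis) of the measured genes of 8 marker lists in each of the 6 arrays labelled T, with replicates 4, 5 and 6 from left to right and the mean and SD of the 3 arrays as a bar. The B cell list lies at 8.94 to 9.24 in labelled resting T and at 10.67 to 10.84 in labelled activated T, and the mitosis list falls from 8.50 to 8.61 in the former to 5.32 to 5.67 in the latter.

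Cd2 and Thy1 had the largest differences of the T cell list, with opposite signs. Cd2, an adhesion receptor that mouse B cells also carry, had levels of 7.44, 7.29 and 7.09 in labelled resting T and 10.68, 10.42 and 10.40 in labelled activated T, a difference of 3.22 ± 0.11 (SE) (limma adjusted p = 1.4e-12). Thy1, a surface glycoprotein of mouse T cells, had 8.41, 8.34 and 7.99 in labelled resting T and 5.68, 5.42 and 6.30 in labelled activated T, and its difference was -2.45 ± 0.17 (SE) (limma adjusted p = 7.25e-09). Neither gene's groups overlapped. Il7r, the receptor for the survival cytokine IL-7, was also higher, by 1.35, from levels under the background in every array labelled resting T. Over all genes, the correlation of levels between the arrays labelled activated T and those labelled resting B had a mean r of 0.962, above the 0.946 between labelled activated T and labelled resting T. The arrays labelled resting T correlated with those labelled activated B with a mean r of 0.951. These values are descriptions across genes, which are not independent replicates.

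In all, 3177 genes were called higher and 3545 lower in labelled activated T, which is 33.7% of the genes tested. At least 2-fold differences were reached by 654 of the higher genes, 3.28% of all, and by 922 of the lower ones, 4.62% of all. Centring each array on its median, which moved the median difference of all genes from 0.02 to -0.09, lowered the share of higher genes among the calls from 47.3% to 33.9%. The 10 largest measured positive differences without overlap were those of Cr2, the complement receptor CD21 of B cells, at 5.54, and of Gm6377, Rasgef1b, Slc40a1, S1pr1, Abca1, Rgs2, Fcrl1, Hspa1a and Cd36, between 3.79 and 5.003. Gm6377, Rasgef1b, Slc40a1, Abca1 and Rgs2 had means at or under the background in labelled resting T, so that their differences may understate the change and the order of the 10 is not measured. Abca1 exports cholesterol from the cell, Cd36 takes up fatty acids, and Rgs2 shortens signals of G protein-coupled receptors. Hspa1a has a near-identical copy, Hspa1b, so its value may hold both.

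The 10 largest measured negative differences were those of Socs2, Nfil3, Bub1, Ccl22, Pros1, Tmem176b, Timd2, H2ac4, Kif11 and Ncapg, from -6.46 to -4.26. Socs2, a feedback inhibitor of cytokine receptors, had levels of 11.43, 11.42 and 11.10 in labelled resting T and 4.87, 4.99 and 4.69 in labelled activated T. Nfil3, a transcription factor induced by cytokines including IL-4, had levels of 10.54, 10.44 and 10.11 in labelled resting T and 5.23, 4.90 and 5.07 in labelled activated T. Their differences were -6.46 ± 0.13 (SE) and -5.29 ± 0.15 (SE). All of the 10 but Tmem176b had means at or under the background in labelled activated T, so that their differences may understate the change and their order is not measured. Bub1 and Kif11 belong to mitosis, Ncapg is a subunit of the condensin complex, and Pros1 encodes protein S. H2ac4 is 1 of many near-identical histone genes, and its value may hold several of them.

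**Figure D2:**
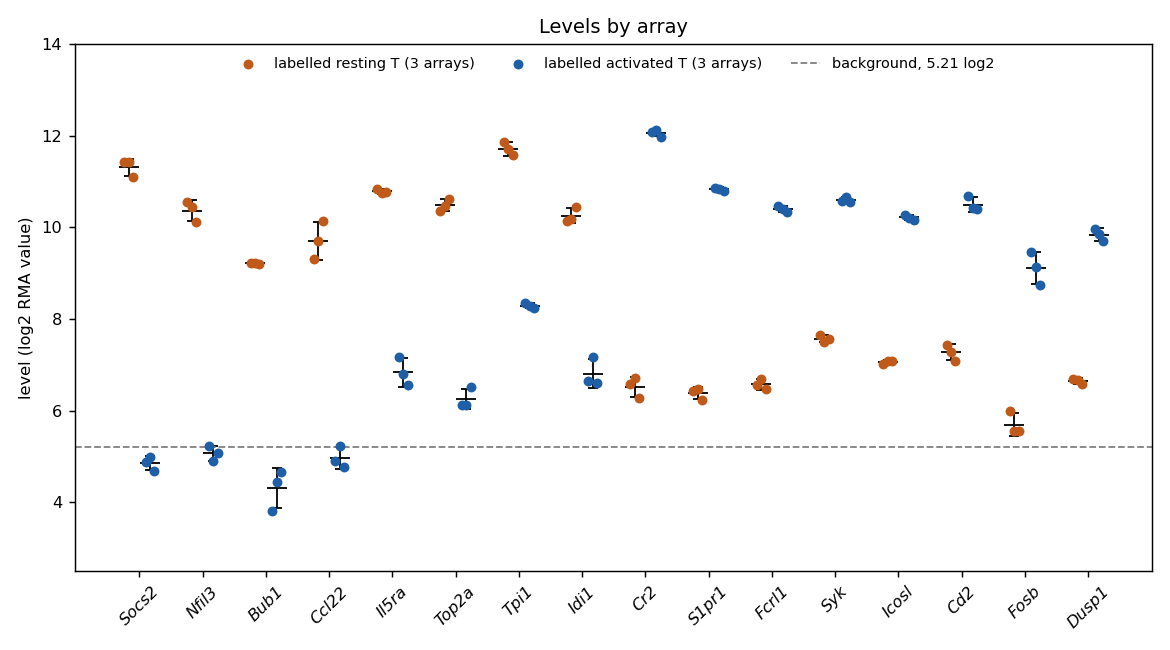
Levels (log2 RMA value, vertical axis) of 16 genes in each array labelled resting T and labelled activated T, with replicates 4, 5 and 6 from left to right and the mean and SD of the 3 arrays as a bar. No gene shown has arrays of one group within the range of the other, and Socs2, Bub1 and Ccl22 lie near or under the background of 5.21 in the arrays labelled activated T.

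Genes of mitosis were the list with the largest median difference. All 31 measured members were called lower and all 31 by at least 2-fold, with a median of -3.18 and a range from -4.91 to -1.26. The arrays of the groups did not overlap for any of the 31, beside 21.1% of all genes that lay lower without overlap. Bub1, a kinase of the spindle checkpoint, had levels of 9.23, 9.23 and 9.20 in labelled resting T and 3.82, 4.45 and 4.66 in labelled activated T (limma adjusted p = 1.11e-12). Kif11, the motor that separates the spindle poles, had levels of 9.29, 9.28 and 9.33 in labelled resting T and 4.66, 4.82 and 5.58 in labelled activated T, and Top2a, which untangles DNA before chromosomes separate, had 10.37, 10.47 and 10.62 in labelled resting T and 6.12, 6.12 and 6.52 in labelled activated T. For Bub1 and Kif11 the arrays labelled resting T lay closer together than those labelled activated T, whose levels were near or under the background. Mki67, the antigen Ki-67 of dividing cells, had a difference of -3.87 ± 0.21 (SE), named here after its value was seen. Among the checkpoint and anaphase genes, Bub1b had a difference of -3.72, Ccnb2 of -3.15 and Cdc20, which starts anaphase, of -2.40.

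The starts of these genes are shown because the whole list moved one way. RefSeq promoter windows of GRCm38.p6, from 250 bases before to 50 bases after the start, were matched by symbol for 25 of the 31 mitosis genes, in 26 windows. The letters TTTGAA, read on both strands and known as the core of the CHR element of cell cycle genes, were found in 20 of the 26 windows (76.9%), beside 17.9% of all 32851 windows. CCAAT, the box bound by NF-Y, was found on either strand in 19 of the 26 (73.1%), beside 37.4% of all. Kif11 is the member with the largest measured absolute difference that held TTTGAA before its start, and Bub1 the one that held CCAAT. The 250 bases before each start are printed 5′ to 3′ on the strand of the gene, with both letter patterns and their reverse complements in capitals.
Kif11: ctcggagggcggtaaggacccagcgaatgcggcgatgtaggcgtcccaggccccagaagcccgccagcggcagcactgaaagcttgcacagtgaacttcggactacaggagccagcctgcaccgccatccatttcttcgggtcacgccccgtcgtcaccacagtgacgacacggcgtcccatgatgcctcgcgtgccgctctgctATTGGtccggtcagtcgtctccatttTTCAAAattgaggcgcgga
Bub1: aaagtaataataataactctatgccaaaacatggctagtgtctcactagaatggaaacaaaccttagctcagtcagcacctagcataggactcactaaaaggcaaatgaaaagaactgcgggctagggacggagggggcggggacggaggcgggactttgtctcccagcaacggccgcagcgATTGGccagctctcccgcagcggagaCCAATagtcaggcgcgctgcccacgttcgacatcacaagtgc
The Kif11 window lies at chr19:37376132-37376381 on the plus strand, with CCAAT on the reverse strand 45 and TTTGAA on the reverse strand 19 bases before the start. The Bub1 window lies at chr2:127831860-127832109 on the minus strand and holds CCAAT 68 and 42 bases before the start, with TTTGAA not among these letters. A match describes letters only and says nothing of binding.

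DNA replication genes were lower in labelled activated T for 37 of 38 members, 32 of them by at least 2-fold, with a median difference of -1.96. Mcm2, Mcm3, Mcm4 and Mcm5, subunits of the replicative helicase, had differences of -1.88, -2.65, -1.86 and -1.96. The largest differences of the list were those of Rrm2, Uhrf1 and Mcm6. Rrm2, the regulated subunit of ribonucleotide reductase, had levels of 10.06, 10.11 and 10.24 in labelled resting T and 5.85, 5.95 and 6.88 in labelled activated T, a difference of -3.91 ± 0.20 (SE) (limma adjusted p = 1.08e-10). Uhrf1, which keeps DNA methylation through replication, had levels of 9.60, 9.78 and 9.95 in labelled resting T and 6.31, 6.51 and 6.80 in labelled activated T, a difference of -3.24 ± 0.12 (SE). The groups lay well apart for both genes. The 1 member not called was Cdt1, a licensing factor, at -0.09 ± 0.10 (SE) (limma adjusted p = 0.581). GGCGGGAA, a form of the E2F site read on both strands, was found in 7 of the 36 promoter windows of the list (19.4%), beside 2.2% of all windows. The Uhrf1 window, at chr17:56303087-56303336 on the plus strand, is shown as that of the member with the largest absolute difference that held it, with its reverse complement, 48 bases before the start, in capitals.
Uhrf1: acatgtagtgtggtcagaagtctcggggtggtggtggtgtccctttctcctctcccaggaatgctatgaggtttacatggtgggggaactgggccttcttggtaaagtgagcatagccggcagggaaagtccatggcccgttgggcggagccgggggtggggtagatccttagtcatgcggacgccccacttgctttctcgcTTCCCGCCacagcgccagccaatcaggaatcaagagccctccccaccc

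Among the G1 cyclins and CDK inhibitors, 14 of 22 members were called lower and 4 higher, with a median difference of -0.85. Ccnd2, which encodes cyclin D2 and pairs with CDK4 and CDK6 to start the cycle, had levels of 11.68, 11.76 and 11.79 in labelled resting T and 8.76, 8.74 and 9.27 in labelled activated T, a difference of -2.82 ± 0.12 (SE). Ccne1 and Ccne2, the cyclins of S phase entry, were lower by 1.46 and 2.36, and the repressor E2f8 by 2.54. The higher members were Ccnd1, Cdkn1b, Rb1 and Rbl2. Cdkn1b, which encodes the inhibitor p27, differed by 0.73 ± 0.10 (SE) and Rb1, the retinoblastoma protein, by 0.93 ± 0.11 (SE). Ccnd1 differed by 0.73 ± 0.21 (SE) (limma adjusted p = 0.0122), and its adjusted p was 0.0684 without the array labelled resting T replicate 5 and 0.081 without labelled activated T replicate 6. The call of Rbl2, a relative of Rb1, at 0.34 ± 0.11 (SE) (limma adjusted p = 0.0198), was lost with arrays centred on their median (0.126), without labelled resting T replicate 6 (0.0698) and without labelled activated T replicate 6 (0.0655).

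**Figure D3:**
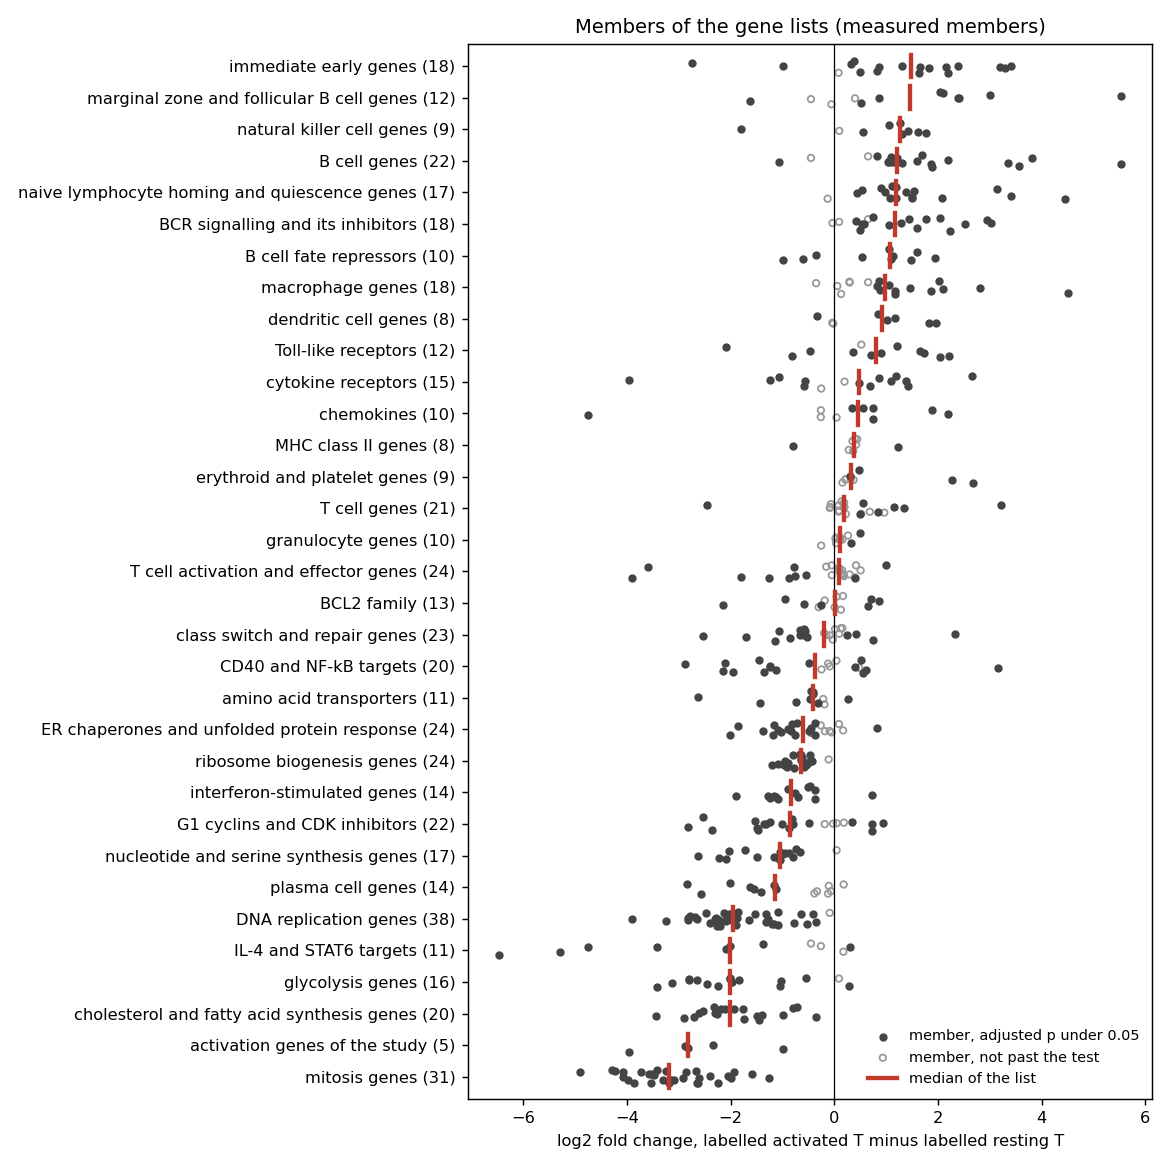
Difference (log2, horizontal axis) of every measured member of the 33 gene lists, ordered by the median of the list, with filled points for members called at an adjusted p under 0.05 and the number of measured members in parentheses. The mitosis list lies wholly under -1 and the immediate early, marginal zone and B cell lists lie mostly above 0.

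Most measured glycolysis genes were lower in labelled activated T. Of 16 members, 14 were called lower, 13 of them by at least 2-fold, with a median of -2.02. Tpi1, triose phosphate isomerase, had levels of 11.86, 11.70 and 11.57 in labelled resting T and 8.35, 8.29 and 8.24 in labelled activated T, a difference of -3.42 ± 0.10 (SE) (limma adjusted p = 5.63e-13). Hk2, the inducible hexokinase, differed by -2.81 ± 0.11 (SE), and Slc16a3, which exports lactate, by -3.13 ± 0.15 (SE). Among the steps between them, Pgk1, Pgam1, Pkm and Ldha had differences from -2.79 to -2.02. The transporters were split. Slc2a1, the glucose transporter GLUT1, had levels of 10.24, 10.23 and 10.13 in labelled resting T and 9.32, 9.28 and 8.93 in labelled activated T and a difference of -1.02 ± 0.12 (SE), whereas Slc2a3, or GLUT3, was the 1 member called higher, by 0.29 ± 0.10 (SE) (limma adjusted p = 0.0287). That call was lost in 7 of the 17 alternatives, among them those without replicate 5 or 6 of labelled resting T or replicate 4 or 6 of labelled activated T (0.0529 to 0.115). Hk1, the constitutive hexokinase, had a difference of 0.09 ± 0.10 (SE) and was not called, and the mean of its probe sets was called in the other direction, at -0.38 (limma adjusted p = 0.00182).

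Cholesterol and fatty acid synthesis genes were called lower for all 20 members, 16 of them by at least 2-fold, with a median of -2.02. Hmgcs1, which makes the precursor of mevalonate, differed by -2.12 ± 0.13 (SE). Idi1, which makes the isoprene units, had levels of 10.13, 10.19 and 10.45 in labelled resting T and 6.64, 7.18 and 6.62 in labelled activated T, a difference of -3.44 ± 0.15 (SE) (limma adjusted p = 2.77e-11). The arrays labelled activated T were each lower than every array labelled resting T, and replicate 5 was the highest of them. Further down the pathway, Fdps differed by -2.54, Sqle, the oxygenase that commits carbon to sterols, by -2.91, and Cyp51 by -2.71. Srebf2, the transcription factor that drives this pathway, had the smallest difference of the list, -0.36 ± 0.11 (SE). Its call (limma adjusted p = 0.0174) was lost with quantile normalization (0.127) and without replicate 4 (0.0609) or 5 (0.0652) of labelled resting T or replicate 6 of labelled activated T (0.101). Abca1, which exports cholesterol, ran the other way, with levels of 5.22, 5.35 and 4.95 in labelled resting T and 9.41, 9.29 and 9.45 in labelled activated T. TCACNCCAC, a form of the sterol response element read on both strands, was in 1 of 17 windows of the list (5.9%), that of Hmgcs1, beside 1.2% of all. The Hmgcs1 window lies at chr13:119690101-119690350 on the plus strand, and the capitals mark the match 137 bases before the start.
Hmgcs1: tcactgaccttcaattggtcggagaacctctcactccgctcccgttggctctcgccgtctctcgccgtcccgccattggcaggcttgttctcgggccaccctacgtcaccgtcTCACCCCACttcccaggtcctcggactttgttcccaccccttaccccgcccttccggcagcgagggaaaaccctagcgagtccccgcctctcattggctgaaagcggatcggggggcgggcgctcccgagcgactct

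**Figure D4:**
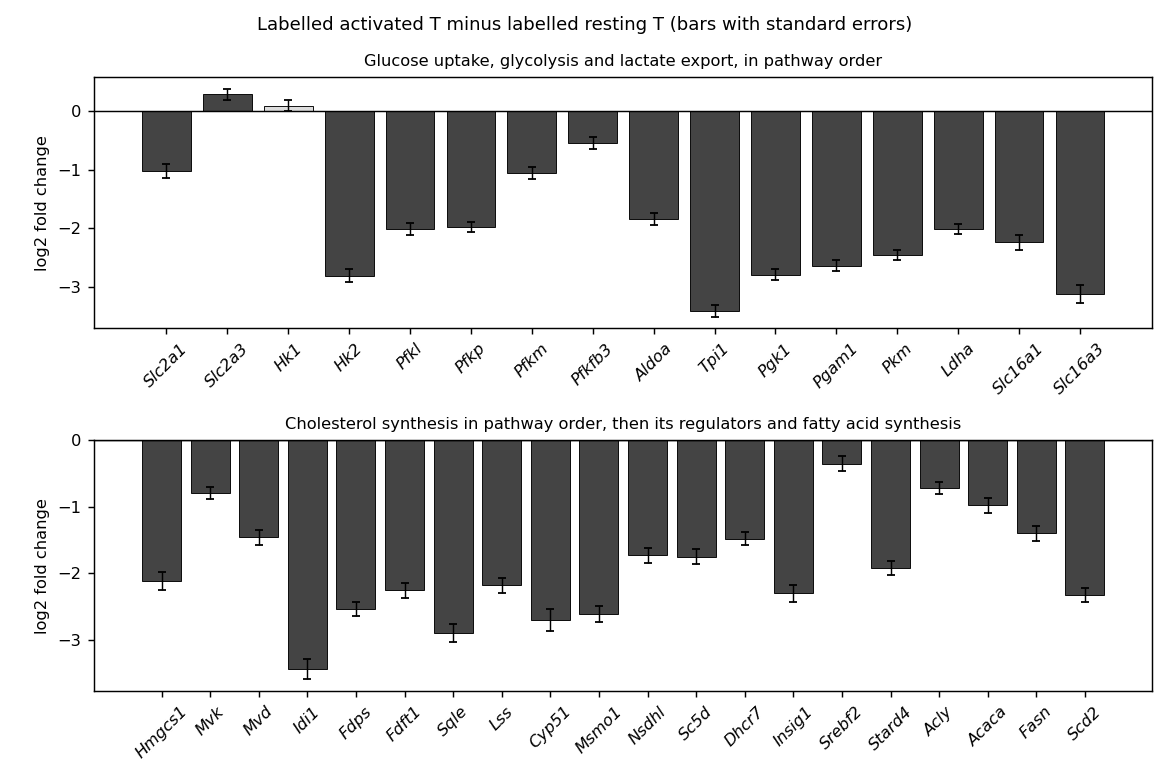
Difference (log2, labelled activated T minus labelled resting T, vertical axis) of each measured gene of glucose uptake, glycolysis and lactate export (top) and of cholesterol and fatty acid synthesis (bottom), with the standard error of the limma fit as error bars. Dark bars are genes called at an adjusted p under 0.05, and all bars but those of Slc2a3 and Hk1 lie under 0.

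Other growth genes were lower by less. In nucleotide and serine synthesis 16 of 17 members were called lower, with a median of -1.05, and the 3 largest differences were those of Psat1 (-2.63), Mthfd2 (-2.22) and Shmt2 (-2.09), which make serine and carry its carbon in the mitochondrion. In ribosome biogenesis 23 of 24 members were called lower, but with a median of only -0.65 and 2 members past 2-fold, Nhp2 at -1.21 ± 0.09 (SE) and Npm1 at -1.08 ± 0.14 (SE). Ubtf, which opens ribosomal DNA for transcription, was the member not called, at -0.11 ± 0.09 (SE). CACGTG, the E-box, was in 4 of 26 windows of this list (15.4%), beside 7.2% of all. Of 11 amino acid transporters, 8 were called lower and 1 higher, with a median of -0.41. Slc7a5, the carrier of large neutral amino acids, had levels of 9.57, 10.08 and 9.75 in labelled resting T and 7.12, 7.22 and 7.15 in labelled activated T and a difference of -2.64 ± 0.15 (SE). Its partner chain Slc3a2 differed by only -0.47 ± 0.11 (SE). Slc38a2 was the member called higher, at 0.27 ± 0.10 (SE) (limma adjusted p = 0.0358). That call was lost with the replicate number as a block (0.0522), without replicate 4 or 6 of labelled resting T or replicate 4 or 5 of labelled activated T (0.0696 to 0.198), with median centring (0.225) and in the 6 labelled T arrays alone (0.0865).

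B cell genes were called higher in labelled activated T for 19 of 22 members, 86.4% beside 15.9% of all genes, with a median of 1.20. Cr2, which binds complement-coated antigen and is a known gene of marginal zone B cells, had levels of 6.57, 6.71 and 6.27 in labelled resting T and 12.07, 12.12 and 11.98 in labelled activated T, a difference of 5.54 ± 0.33 (SE) (limma adjusted p = 9.67e-10). Fcrl1, an Fc receptor-like protein that marks mature B cells, had 6.56, 6.70 and 6.47 in labelled resting T and 10.46, 10.40 and 10.34 in labelled activated T, a difference of 3.82 ± 0.23 (SE). The arrays of each group lay within 0.5 log2 of one another and 3 log2 or more apart from the other group. Cd79a, Cd79b, Ms4a1 and Pax5 differed by 1.19, 0.82, 1.31 and 1.09, with limma adjusted p between 8.53e-05 and 0.0208. The call of Cd79b was lost without labelled resting T replicate 6 (0.0869), without labelled activated T replicate 4 (0.0722) and with an intensity trend and robust settings (0.105). Pou2af1, a coactivator of octamer-binding factors, was the 1 member called lower, at -1.07 ± 0.16 (SE). Cd22 (0.65 ± 0.25 (SE), limma adjusted p = 0.0547) and Fcer2a (-0.45 ± 0.35 (SE), limma adjusted p = 0.393) were not called. With the replicate number as a block Cd22 was called (limma adjusted p = 0.0203), as it was without labelled resting T replicate 4 (0.0387), and both genes were called in the 6 labelled T arrays alone (0.00268 and 0.0105).

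The marginal zone and follicular list shared Cr2 and Fcer2a with the B cell list and had 8 of 12 members called higher and 1 lower, with a median of 1.46. Marginal zone B cells depend on the Notch2 receptor. Notch2 itself had levels of 8.02, 8.19 and 7.71 in labelled resting T and 10.37, 10.38 and 10.33 in labelled activated T, a difference of 2.38 ± 0.12 (SE). Of the genes known to respond to Notch2, Hes1 differed by 2.41 ± 0.20 (SE) and Dtx1 by 2.05 ± 0.12 (SE). Cd1d1, which presents lipids and is abundant on marginal zone B cells, had levels of 5.65, 5.79 and 6.09 in labelled resting T and 8.88, 8.93 and 8.72 in labelled activated T. The member called lower was Mzb1, an endoplasmic reticulum cochaperone of antibody-making cells, at -1.62 ± 0.17 (SE).

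Of 18 genes of B cell receptor signalling and its inhibitors, 15 were called higher and 0 lower, with a median of 1.17. Syk, the kinase that CD79 recruits, had levels of 7.65, 7.50 and 7.56 in labelled resting T and 10.57, 10.67 and 10.56 in labelled activated T, a difference of 3.03 ± 0.21 (SE) (limma adjusted p = 6.97e-09). Fcgr2b, the inhibitory Fc receptor, had levels of 6.59, 6.15 and 6.15 in labelled resting T and 9.23, 9.22 and 9.24 in labelled activated T and a difference of 2.94 ± 0.18 (SE). Both groups of arrays were tight and far apart for these genes, of which Syk activates and Fcgr2b inhibits the same pathway. Btk, the kinase downstream of Syk, differed by 1.28 ± 0.17 (SE), and Grap2, an adaptor better known from T cells, by 2.52 ± 0.12 (SE). Of 12 Toll-like receptor genes, 8 were called higher and 3 lower, with a median of 0.80. Tlr1 differed by 2.21 ± 0.11 (SE) and Cd180, a related receptor that modulates responses to lipopolysaccharide, by 2.05 ± 0.15 (SE). Tlr7, the sensor of single-stranded RNA, went the other way, with levels of 9.28, 9.43 and 9.47 in labelled resting T and 6.99, 7.47 and 7.45 in labelled activated T and a difference of -2.09 ± 0.16 (SE).

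Homing and quiescence genes of naive lymphocytes were called higher in labelled activated T for 16 of 17 members and lower for 0, with a median of 1.20. S1pr1, the receptor by which lymphocytes leave tissues, had levels of 6.42, 6.48 and 6.23 in labelled resting T and 10.87, 10.84 and 10.79 in labelled activated T, a difference of 4.45 ± 0.10 (SE) (limma adjusted p = 2.59e-14). Tsc22d3, a glucocorticoid-induced leucine zipper protein under FOXO control, had 5.55, 5.65 and 5.52 in labelled resting T and 8.55, 9.34 and 9.06 in labelled activated T, a difference of 3.41 ± 0.17 (SE). For S1pr1 the 3 arrays of each group lay close together, and for Tsc22d3 those labelled activated T spread more. Klf2, which drives S1pr1 transcription, differed by 1.54 ± 0.12 (SE), Klf3 by 1.08 ± 0.12 (SE) and the chemokine receptor Ccr7 by 1.38 ± 0.09 (SE). Gpr183, a receptor that guides B cells to the edge of follicles, was the member not called, at -0.13 ± 0.13 (SE), a value that changed sign with quantile normalization (0.02).

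Immediate early genes, which are transcribed within minutes of a stimulus or of handling, were called higher for 15 of 18 members, with a median of 1.47. Fosb had levels of 5.99, 5.56 and 5.55 in labelled resting T and 9.45, 9.15 and 8.74 in labelled activated T, a difference of 3.42 ± 0.16 (SE) (limma adjusted p = 6.46e-11). Fos differed by 3.29 ± 0.17 (SE), Jun by 1.83 ± 0.18 (SE), and Dusp1, the phosphatase that ends MAP kinase signals, by 3.20 ± 0.10 (SE). Their arrays labelled activated T were all above those labelled resting T. The heat shock gene Hspa1a was higher in the same arrays, at 6.34, 6.02 and 6.26 in labelled resting T and 10.91, 9.54 and 9.59 in labelled activated T, and its part in these differences was not tested. Egr2 ran against the list, with levels of 9.10, 8.96 and 8.72 in labelled resting T and 6.35, 6.09 and 6.11 in labelled activated T and a difference of -2.74 ± 0.13 (SE), and Atf3 was also lower, by 0.98. The regulators of B cell fate included 7 of 10 members called higher and 3 lower, with a median of 1.08. Of the 3 lower members 1 was called with quantile normalization, without labelled resting T replicate 5 and without replicate 4 or 5 of labelled activated T. Foxp1, Ebf1 and Bcl6 were higher, by 1.95, 1.60 and 1.49, and Bach2, which holds back plasma cell differentiation, by 1.14 ± 0.16 (SE).

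Targets of IL-4 and STAT6 included Socs2, Nfil3 and Ccl22, which are among the 10 largest measured negative differences. Of 11 measured members 7 were called lower, each by at least 2-fold, and 1 higher, with a median of -2.01. Beside Socs2 and Nfil3, described above, Ccl22, a chemokine for CCR4-bearing T cells, had levels of 9.31, 9.70 and 10.13 in labelled resting T and 4.90, 5.24 and 4.77 in labelled activated T, a difference of -4.74 ± 0.19 (SE) (limma adjusted p = 1.09e-11). Cish, a feedback inhibitor of STAT5 signals, had levels of 9.02, 9.08 and 8.73 in labelled resting T and 5.39, 5.45 and 5.74 in labelled activated T and a difference of -3.41 ± 0.11 (SE). Several of these genes, Cish and Socs2 among them, also respond to IL-2 through STAT5. Il4ra, the IL-4 receptor chain, differed by -1.38 ± 0.09 (SE) and Stat6 itself, in the other direction, by 0.31 ± 0.08 (SE). The call of Stat6 (limma adjusted p = 0.0054) was lost with arrays centred on their median (0.071). The palindromic STAT6 site with 4 free bases at its centre was in 2 of 14 windows of the list (14.3%), beside 7.0% of all. These windows belong to Fcer2a, with a difference of -0.45, and to 1 other member, at -0.26. Neither is among the 7 members called lower.

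CD40 and NF-kB targets were divided, with 10 of 20 called lower and 5 higher and a median of -0.37. Fas, the death receptor, had levels of 8.07, 8.57 and 8.53 in labelled resting T and 5.44, 5.64 and 5.48 in labelled activated T, a difference of -2.87 ± 0.12 (SE). Bcl2l1, which encodes the survival protein BCL-XL, differed by -2.16 ± 0.15 (SE) and the costimulatory ligand Cd80 by -1.95 ± 0.23 (SE). Its relative Cd86 was higher, by 0.56 ± 0.14 (SE). Icosl, the ligand of the T cell costimulator ICOS, was the largest exception, with levels of 7.01, 7.10 and 7.08 in labelled resting T and 10.27, 10.21 and 10.17 in labelled activated T and a difference of 3.15 ± 0.16 (SE).

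Of 24 effector and activation genes of T cells, 8 were called lower (33.3%, beside 17.8% of all genes) and 2 higher, with a median of 0.09. The mean level of the list was 5.94 to 6.63 in labelled resting T and 5.67 to 6.15 in labelled activated T, and 6 members lay at or under the background in both groups. Il2ra, the chain that gives the IL-2 receptor its high affinity, had levels of 8.17, 8.55 and 8.57 in labelled resting T and 4.58, 4.79 and 5.15 in labelled activated T, a difference of -3.59 ± 0.14 (SE) (limma adjusted p = 4.29e-12). Gzmb, a cytotoxic protease, had levels of 8.50, 9.25 and 10.47 in labelled resting T and 4.90, 5.86 and 5.76 in labelled activated T, a difference of -3.90 ± 0.35 (SE) (limma adjusted p = 1.26e-07). Both genes were higher in every array labelled resting T than in any labelled activated T. Gzma had 8.78, 9.64 and 10.60 in labelled resting T and 6.996, 7.65 and 8.96 in labelled activated T, and its groups overlapped. Gzma was called, at -1.80 ± 0.44 (SE) (limma adjusted p = 0.0038), but not with an intensity trend and robust settings (0.0504). Prf1, the pore-forming partner of the granzymes, differed by -0.76 ± 0.27 (SE), with a limma adjusted p of 0.0394 that was over 0.05 in 7 alternatives, among them those without replicate 5 or 6 of labelled resting T or replicate 4 or 5 of labelled activated T (0.0847 to 0.227). With the replicate number as a block, or without labelled resting T replicate 6, 4 members of the list were called higher, without labelled resting T replicate 4 only 1 was, and with an intensity trend and robust settings 5 were called lower.

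Of 15 cytokine receptors, 8 were called higher and 5 lower, with a median of 0.48. Il5ra, the IL-5 receptor chain, had levels of 10.85, 10.74 and 10.77 in labelled resting T and 7.16, 6.79 and 6.55 in labelled activated T, a difference of -3.95 ± 0.13 (SE) (limma adjusted p = 1.13e-12). Il21r was also lower, by 1.06. In the other direction, Il10ra had levels of 7.23, 7.03 and 7.06 in labelled resting T and 9.69, 9.83 and 9.79 in labelled activated T and a difference of 2.66 ± 0.14 (SE), and Il17ra differed by 1.43 ± 0.08 (SE). Il5ra is 1 of 5 measured genes that the study took as signs of activation in its B cells, and all 5 were called lower in labelled activated T, with a median of -2.82. The others were Fas and Ccnd2, given above, the adhesion receptor Cd44, at -2.34 ± 0.09 (SE), and Myc, at -0.99 ± 0.10 (SE). Between labelled activated B and labelled resting B, 1 of these 5 genes was called higher and 3 lower, with a median of -0.39. For all genes the shares there were 19.7% higher and 16.7% lower. These 5 were picked by the study and are not independent evidence of a direction. Of 10 chemokines, 6 were called higher and 1, Ccl22, lower, with a median of 0.45, and 4 lay at or under the background in both groups. Only 4 were called higher with median centring and with quantile normalization. The same held without labelled resting T replicate 5 and without replicate 4 or 6 of labelled activated T. Ccl5 differed by 2.19 ± 0.29 (SE) and Ccl3 by 1.89 ± 0.26 (SE).

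Plasma cell genes were called lower for 8 of 14 members and higher for 0, with a median of -1.15. Xbp1, the transcription factor of the secretory programme, had levels of 11.05, 10.98 and 10.78 in labelled resting T and 8.85, 8.82 and 9.10 in labelled activated T, a difference of -2.02 ± 0.15 (SE). Jchain, which joins IgM and IgA subunits, had 7.44, 8.71 and 9.11 in labelled resting T and 5.92, 5.58 and 5.24 in labelled activated T, a difference of -2.84 ± 0.30 (SE). Prdm1, which encodes the plasma cell regulator BLIMP-1, differed by -1.55 ± 0.18 (SE) and Irf4 by -1.13 ± 0.15 (SE). Sdc1, the surface marker CD138, did not pass the test (-0.11 ± 0.11 (SE)). Of 24 genes of endoplasmic reticulum chaperones and the unfolded protein response, 16 were called lower and 1 higher, with a median of -0.61. Sdf2l1, a cofactor of the chaperone BiP, differed by -1.85 ± 0.12 (SE), BiP itself (Hspa5) by -0.45 ± 0.10 (SE), and Dnajb9, the 1 member called higher, by 0.83 ± 0.12 (SE).

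In class switch and repair 11 of 23 members were called lower and 4 higher, with a median of -0.19. Exo1, a nuclease of mismatch repair and replication, differed by -2.53 ± 0.11 (SE) and Ung, which removes uracil from DNA, by -1.06 ± 0.13 (SE). Hmces, which protects abasic sites, was higher, with levels of 5.37, 5.18 and 5.64 in labelled resting T and 7.97, 7.73 and 7.50 in labelled activated T. Of 13 members of the BCL2 family, 3 were called higher and 4 lower, with a median of 0.01. Bcl2 differed by 0.65 ± 0.11 (SE) and Mcl1 by 0.71 ± 0.09 (SE), so that survival genes of one family were found on both sides of 0 beside the lower Bcl2l1. Of 14 interferon-stimulated genes, 13 were called lower and 1, Ifit3, higher, with a median of -0.83. The groups overlapped for Ifit3. It was not among the 11 members with a mean above the background over all arrays, all of which were called lower. Usp18, which damps interferon signals, had levels of 7.32, 8.09 and 8.22 in labelled resting T and 5.81, 6.08 and 6.07 in labelled activated T, a difference of -1.89 ± 0.19 (SE). The call of Ifit2 (-0.46 ± 0.16 (SE), limma adjusted p = 0.0384) was lost in 5 alternatives, among them those without labelled resting T replicate 6 or replicate 4 or 5 of labelled activated T (0.0938 to 0.216). That of Mx1 (-0.77 ± 0.23 (SE)) was lost without replicate 6 of labelled resting T (0.0794), without replicate 6 of labelled activated T (0.0696) and with array weights (0.0597).

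MHC class II genes had a median difference of 0.38, with 1 of 8 called higher, 1 lower and 6 not called. H2-Aa, the alpha chain of I-A, had levels of 12.44, 12.41 and 12.46 in labelled resting T and 12.82, 12.68 and 12.65 in labelled activated T, a difference of 0.28 ± 0.25 (SE) (limma adjusted p = 0.455). Its groups did not overlap, which held for 7 of the 8 genes with labelled activated T higher, beside 21.2% of all genes. The SE comes from 1 variance per gene over all 12 arrays, whereas the SD of H2-Aa was 0.02 within labelled resting T and 0.09 within labelled activated T. With the replicate number as a block, or in the 6 arrays labelled T alone, 6 of the 8 were called higher. H2-Ob, a chain of the peptide-loading modulator H2-O, was called higher, at 1.24 ± 0.19 (SE), and H2-DMa, a chain of the loading factor H2-M, lower, at -0.80 ± 0.17 (SE).

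Markers of several other cells of the spleen differed between the labelled groups, those of granulocytes little. Of 18 macrophage genes, 12 were called higher in labelled activated T and 0 lower, with a median of 0.97, and their summed linear level was 1032 to 1200 in labelled resting T and 1834 to 2960 in labelled activated T. Slc40a1, the iron exporter of red pulp macrophages, had levels of 3.72, 4.09 and 3.75 in labelled resting T and 9.18, 7.85 and 8.07 in labelled activated T, a difference of 4.52 ± 0.35 (SE) (limma adjusted p = 2.17e-08). Csf1r, the receptor for the macrophage growth factor, had 5.25, 5.20 and 5.43 in labelled resting T and 7.95, 6.85 and 7.11 in labelled activated T, and C1qa, a complement chain, had 5.74, 5.56 and 5.88 in labelled resting T and 7.58, 6.36 and 6.77 in labelled activated T. In labelled activated T replicate 4 was the highest of the 3 arrays for each of these genes. Adgre1, a surface receptor of macrophages, was not called (0.65 ± 0.28 (SE), limma adjusted p = 0.089), but was called with the replicate number as a block (0.0174) and without labelled resting T replicate 4 (0.00828). Vcam1 and Spic, the latter a transcription factor of red pulp macrophages, were higher by 2.82 and 2.09.

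Of 9 natural killer cell genes, 7 were called higher and 1, Gzma, lower, with a median of 1.27. Their summed level ran from 596 to 1802 in labelled resting T and from 437 to 1233 in labelled activated T, ranges that overlap. Gzma alone made up 73.7% to 85.9% of the sum in labelled resting T and 29.2% to 40.3% in labelled activated T. Without it the other 8 genes summed to 157 to 255 and to 309 to 735, ranges that do not overlap. Ncr1, the receptor NKp46, had levels of 4.94, 5.12 and 5.30 in labelled resting T and 5.56, 6.24 and 7.50 in labelled activated T, and Klrb1c, or NK1.1, had 4.11, 4.25 and 4.60 in labelled resting T and 4.86, 5.19 and 6.10 in labelled activated T. In both groups the array numbered 6 was the highest for these genes, and the calls of Ncr1 and Klrb1c were lost without the array labelled activated T replicate 6 (limma adjusted p = 0.0558 and 0.0757), with 5 genes of the list then called higher. With an intensity trend and robust settings 4 were. Of 8 dendritic cell genes, 5 were called higher and 1 lower, with a median of 0.93 and summed levels of 318 to 359 and 498 to 612. Clec9a and Siglech, markers of cross-presenting and plasmacytoid dendritic cells, differed by 1.97 and 1.84, and do not stand for the whole list. Clec9a was not among the 6 members with a mean above the background over all arrays. The median level of the list was 5.03 in labelled resting T, under the background, and 6.09 in labelled activated T. The differences of the list ran from -0.32 to 1.97, and that of Clec9a was the largest. Of 10 granulocyte genes, 2 were called higher, 20% beside 15.9% of all genes, with a median of 0.11. Their summed levels were 253 to 280 and 284 to 311. At or under the background in both groups lay 8 of the 10, the myeloid protein S100a8 (means of 3.75 and 4.25) and the peroxidase Mpo (4.74 and 5.01) among them. The call of S100a8 was lost without labelled resting T replicate 4 (0.0691) or labelled activated T replicate 6 (0.0602). Of 9 erythroid and platelet genes, 4 were called higher and 5 were not called, with a median of 0.32 and summed levels of 292 to 314 and 522 to 1219. The differences ran from 0.16 to 2.67, and that of Ppbp was the largest. Among genes with a mean above the background 2 of the erythroid and platelet genes were called. Ppbp, a platelet chemokine, had levels of 4.59, 4.72 and 4.98 in labelled resting T and 7.42, 7.60 and 7.28 in labelled activated T, and Car1, the carbonic anhydrase of red cells, had 5.27, 5.69 and 5.27 in labelled resting T and 6.23, 7.30 and 9.52 in labelled activated T. The part of these other cells in the differences of the lymphocyte genes was not tested.

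The differences between the groups labelled T and between those labelled B were compared next, with the interaction test on arrays that the 2 contrasts do not share. It was called for 8518 genes, 42.7% of all. All 31 mitosis genes and all 38 replication genes were among them. The median of the mitosis list was -3.18 in the labelled T comparison and 3.57 in the labelled B comparison (labelled activated B minus labelled resting B), with an interaction of -9.95 for Bub1 (limma adjusted p = 5.4e-15). Cholesterol and glycolysis genes likewise had medians of -2.02 and -2.02 in the labelled T and of 1.85 and 1.65 in the labelled B comparison, with 20 of 20 and 15 of 16 members in the interaction. The B cell genes ran the other way, with a median of 1.20 in the labelled T and -2.00 in the labelled B comparison and 21 of 22 members in the interaction.

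Some lists did not mirror each other. MHC class II genes had a median of -3.07 in the labelled B comparison, where 6 of 8 were called lower (beside 16.7% of all genes called lower and 19.7% called higher there), and of 0.38 in the labelled T comparison, and H2-Aa had an interaction of 5.53 (limma adjusted p = 1.01e-09). In the same labelled B comparison 16 of 18 macrophage genes, with a median of -1.84, and 7 of 8 dendritic cell genes were called lower, and their part in the class II difference was not tested. Interferon-stimulated genes had negative medians in both comparisons, -0.83 in labelled T and -0.79 in labelled B. In labelled B 8 of 14 were called lower and 3 higher. The interaction was nonetheless called for 10 of the 14, beside 42.7% of all genes. Ifit1 was among those without that call (0.58, limma adjusted p = 0.172). Pou2af1 and Mzb1 were called lower in both, with labelled B differences of -1.53 and -2.20, as was Tlr7 with -1.92, and none of the 3 had a called interaction (limma adjusted p = 0.127, 0.0646 and 0.61). Ccl22 had a difference of -0.08 in labelled B beside -4.74 in labelled T, and Gzmb one of 5.94 beside -3.90. Il5ra and Fas, which were lower in labelled activated T, also had negative differences in labelled B, of -1.04 and -0.62.

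**Figure D5:**
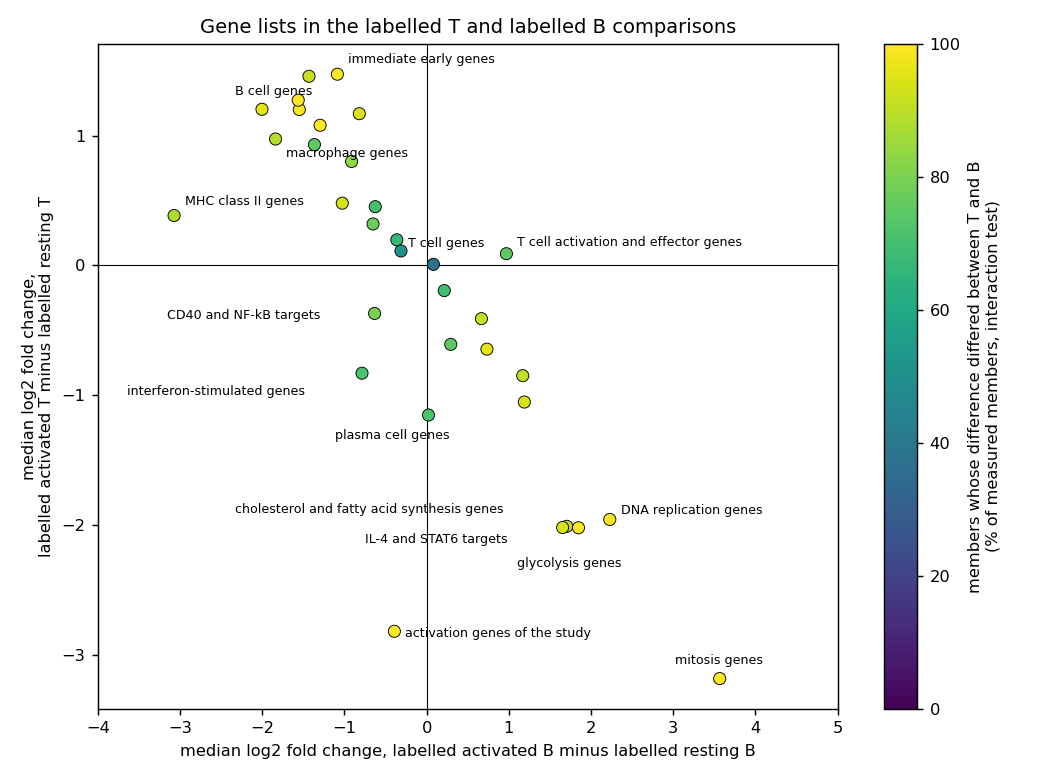
Median difference (log2) of each of the 33 gene lists in the labelled B comparison (horizontal axis) and in the labelled T comparison (vertical axis), coloured by the share of measured members called in the interaction test. Many lists lie near a falling diagonal, with mitosis genes at 3.57 and -3.18. Among those off it are MHC class II genes (-3.07 and 0.38) and interferon-stimulated genes (-0.79 and -0.83). CD40 and NF-kB targets (-0.63 and -0.37), the activation genes of the study (-0.39 and -2.82) and plasma cell genes (0.02 and -1.15) are as well.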

How the data were processed

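Levels were log2 values, 1 per probe set and array, that the authors deposited and that the submitters' processing notes credit to RMA, which brings all arrays to 1 distribution, so that a shift of most genes one way cannot be seen. No version or further filter was found in the sources used here. Array medians of the labelled T groups were 5.51 to 5.68, arrays hold no read depth, and 3 arrays a group limit the precision. Of 34760 probe sets, 21640 had 1 gene symbol, 1321 several and 11799 none, and only the first were named. Identifiers of 21553 were found in the RefSeq table. For 954 genes with several probe sets the one with the highest mean was used, which left 19937 genes. Some listed genes are not analysed here.

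A mean per labelled group was fitted over all 12 arrays with limma 3.58.1 in R 4.3.3 (lmFit, eBayes, 8 residual and 7.8 prior degrees of freedom), two-sided, with Benjamini-Hochberg adjustment over all genes. The contrasts were labelled activated minus resting T, the same in B, and their difference (the interaction). The study's methods as available gave no test for these arrays. In simulated data with 19937 genes and known changes in the labelled T contrast, 58%, 96% and 100% of genes changed by 0.5, 1 and 2 log2 were called, and 7 of 182 calls were false. Only 50, 100 and 50 genes were changed by these amounts. The noise was independent between genes and arrays, with no sex or replicate effect and no other group difference. These shares therefore check the fit and need not hold for the reported calls. No more than 0.069% of probe sets had identical values between any pair of arrays. Deviations from the group means of same-numbered labelled T arrays correlated with r of 0.222, 0.158 and 0.227 over 12170 genes above the background (0.058, 0.102 and 0.199 without 3 sex-linked genes), so that by the first values the numbers pair the arrays. The fit without a replicate block is reported and the block was an alternative.

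The 33 gene lists hold 556 genes, 522 of them measured. Groups, lists, tests and alternatives were chosen with earlier results of these data known, so lists are described by counts and medians, with no test. Named genes were drawn from the 10 with the largest difference in each direction among those called and without overlap. They were also drawn from the first 4 measured members and the 3 largest differences of each list. Activation genes of the study and lineage markers were added. Not every gene under this rule is printed, so counts over the named genes describe a chosen set. Atf3, Cdkn1b, Cdt1, Dnajb9, Dtx1, Egr2, Gpr183, Ldha, Mki67, Mzb1, Notch2, Pgam1, Pgk1, Pkm, Pou2af1, Rb1, Rbl2, Slc38a2, Srebf2, Stat6 and Ubtf were named after their values were seen. Alternatives were a fit of the 6 labelled T arrays alone, the replicate block, array weights, eBayes with trend and robust options, averaged or separate probe sets of a gene, 2 filters on dim genes, quantile normalization, arrays centred by median or by 75th percentile, and each labelled T array left out. Figures were drawn with Python and matplotlib. The chromosome conformation and microscopy experiments were not analysed here.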

Additional observations from a re-analysis of the deposited data

Results flagged for a closer look

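The difference between labelled activated and labelled resting arrays was not the same in labelled T and labelled B for 8518 genes by the interaction test of limma at an adjusted p under 0.05, 148 of the genes named here among them. The values of the interaction, which is the labelled T difference minus the labelled B difference on the log2 scale, were, as measured, farthest from 0 among these for Bub1 (-9.95), Nfil3 (-9.85), Gzmb (-9.84), Slc40a1 (9.59), Socs2 (-9.54) and Pros1 (-9.18). In all 6 the 2 differences had opposite signs. All but Gzmb had means under the background of 5.21 in at least 1 group, so that these values are lower bounds and their order is not measured. Probe sets with no gene named also differed between the labelled T groups. Of 11799, 3095 were called (26.2%) and 1003 of them at least 2-fold (8.5% of those tested), beside 33.7% of the named genes called.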

How the results depend on the processing

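The counts called higher, lower and at least 2-fold stayed within 1.5 times their value under each of the 17 alternatives, and that of the interaction under the 16 it was fitted in, which leave out the fit of the 6 labelled T arrays alone. Leaving out each labelled T array in turn gave 2795 to 3056 genes called higher, 3152 to 3445 lower, 1539 to 1670 at least 2-fold and 8040 to 8486 in the interaction. The replicate number as a block treats same-numbered labelled T arrays as pairs, which the arrays themselves did not settle. With it 3129 genes were called higher, 3430 lower, 1576 at least 2-fold and 8416 in the interaction. Of the 6722 calls, 6377 were shared, all with the same sign. The block added calls in the MHC class II list (6 higher) and the T cell list (9 higher). Leaving out 1 array moved counts by over 1.5 times in the lists of G1 (2 higher without labelled activated T replicate 6, beside 4) and granulocyte genes (1 higher, beside 2, without any 1 of 5 arrays). It did so too for T cell effector, B cell fate, glycolysis and amino acid transporter genes, as given above, and for the 1 dendritic cell gene called lower, which was lost without any 1 of 3 arrays. Quantile normalization called 5 MHC class II genes higher, and a filter on mean level 3. Of 150 genes named here and called, 134 kept their call and sign in every alternative they could be tested in. Gpr183, not called, changed sign with quantile normalization (0.019), and Hk1, not called, with centring on the median (-0.013) and with the mean of its probe sets (-0.38). The cause was not tested. Few arrays, and levels near the background, limit what can be said of the T cell, natural killer and granulocyte genes.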
